A study of Homo sapiens with 6 samples.

Results

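The glucocorticoid and mineralocorticoid receptors (NR3C1, NR3C2), the vitamin D receptor (VDR), the retinoic acid receptors (RARA, RARB, RARG), the retinoid X receptors RXRA and RXRB, and the peroxisome proliferator-activated receptors PPARG and PPARD were followed in a tamoxifen-resistant breast cancer line and its parent. They were read as every probe set whose only gene symbol in the platform annotation is one of these 10 names, which gave 30 of the 22283 probe sets on the array. LCCTam is a tamoxifen-resistant variant of SUM44 and was grown with 500 nM 4-hydroxytamoxifen, the active form of tamoxifen. SUM44 is a human line from an invasive lobular breast carcinoma, described in the labels as positive for estrogen and progesterone receptors, and was grown without the drug. Both grew in SFIH medium based on Ham's F12, and the labels do not say whether it held corticoids, vitamin D or retinoids. There were 3 arrays of total RNA per line, from LCCTam at passages 8, 9 and 10 and from SUM44 at passages 74, 75 and 76. LCCTam is 1 derived line, and the line and the drug cannot be told apart. Values are the deposited log2 expression values. A difference is LCCTam minus SUM44 on that scale, and a probe set passed where the limma adjusted p, taken over all 22215 non-control probe sets, was under 0.05.

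These receptors are transcription factors that bind lipid-soluble ligands. The 2 corticoid receptors wait in the cytoplasm on heat shock chaperones, move to the nucleus when a steroid binds, and bind DNA as homodimers. The other receptors sit on DNA as heterodimers with a retinoid X receptor, so RXRA and RXRB are shared partners of VDR, the retinoic acid receptors and the PPARs. In breast epithelium vitamin D and retinoic acid are known to restrain growth. RARB is itself a target of retinoic acid receptors, through a response element next to its start site.

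That element is shown because RARB was, after NR3C2, the receptor gene closest to a call, and because it links the receptors to their own transcription. The retinoid element is a direct repeat of a six-base half-site with a five-base spacer, known as DR5. Bases are given 5′ to 3′ for the 250 bases before the gene start in RefSeq (GRCh38.p14), with the DR5 match in capitals. The RARB window is chr3:25428013-25428262 on the + strand. The window of CYP26A1, an enzyme that breaks down retinoic acid, is chr10:93073643-93073892 on the + strand and is shown because it held the 1 DR5 match in 190 windows of 119 other genes of the pathway lists.
RARB: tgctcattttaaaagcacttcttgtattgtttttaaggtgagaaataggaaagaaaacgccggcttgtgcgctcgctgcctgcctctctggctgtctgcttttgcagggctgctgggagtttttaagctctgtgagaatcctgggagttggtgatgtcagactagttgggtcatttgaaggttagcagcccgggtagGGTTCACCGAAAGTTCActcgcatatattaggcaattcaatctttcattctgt
CYP26A1: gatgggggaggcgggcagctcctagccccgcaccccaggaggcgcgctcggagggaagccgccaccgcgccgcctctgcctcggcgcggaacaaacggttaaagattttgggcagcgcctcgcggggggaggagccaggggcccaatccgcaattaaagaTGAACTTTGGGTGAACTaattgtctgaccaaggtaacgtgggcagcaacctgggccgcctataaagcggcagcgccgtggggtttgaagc
The RARB repeat lies 53 to 37 bases before the start on the gene's strand, and the CYP26A1 repeat 90 to 74 bases before the start on the opposite strand. RefSeq windows of 300 bases, 250 before and 50 after each start, were searched on both strands for direct repeats with spacers of 1 to 5 bases, by name DR1 to DR5, and for the corticoid palindrome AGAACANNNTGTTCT. The half-site was AGGTCA or a variant of it with G as the first base, T as the third base or both, and matches with different spacers could share a half-site. Among 30 windows of 9 receptor genes, DR5 was found in 1, the RARB window shown, and DR1, DR2, DR3, DR4 and the palindrome in 0. VDR had 0 windows and so was not searched. Of all 35116 windows, 0.0883% held a DR5, 0.131% a DR1, 0.0399% a DR2, 0.0740% a DR3, 0.0854% a DR4 and 0.00285% the palindrome. These are matches of letters, not sites shown to be bound.

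The array median of log2 expression was 5.92 to 5.97 on all 6 arrays. LCCTam at passage 10 stood apart. For the actin controls, the 3′ end exceeded the 5′ end by 1.92 on that array and by 0.90 to 1.15 elsewhere, and the 75th percentile of all values was 7.5 there, against 7.67 to 7.77. Of the 30 receptor probe sets, 9 had their lowest and 11 their highest value on that array, where it held the lowest value of 30% and the highest value of 23.4% of all probe sets. Receptor differences that this array moved by over 1.5 times or turned in sign are given without it as well. Of 10 epithelial and luminal markers, the keratin genes KRT8 and KRT18 and the adhesion gene EPCAM had means of 11.3 or more in both lines. The adhesion gene CDH1 was lower, at 7.63 in LCCTam and 7.76 in SUM44. Of the 10 markers, 1 passed, the estrogen receptor gene ESR1, at 11.1 ± 0.13 in LCCTam and 12.7 ± 0.23 in SUM44 (SD, n = 3 each; limma adjusted p = 0.00172). MUC1, a luminal mucin at 7.05 in LCCTam and 8.42 in SUM44, differed by -1.38 without overlap and did not pass (limma adjusted p = 0.0547). PGR, the progesterone receptor gene, was at 3.85 in both lines, near the bottom of the array. Of 9 fibroblast markers 0 passed (1 at an unadjusted p under 0.05), with means of 3.54 to 6.82 in LCCTam and 3.68 to 6.82 in SUM44. Of 6 leukocyte and endothelial markers 0 passed in limma (0 at an unadjusted p under 0.05), and their means were 4.07 to 6.15 in LCCTam and 3.97 to 6.05 in SUM44. By the brightest probe set, 7.56% of all 11963 genes passed, and 2841 had an unadjusted p under 0.05.

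NR3C2 was lower in LCCTam and was the only one of the receptor genes to pass. Of the 30 receptor probe sets 0 passed as higher and 1 as lower, or 3.33% in all, where 6.73% of all probe sets passed, 1.56% as higher and 5.16% as lower. That split over the array moved with some choices of processing. It was 347 higher and 1147 lower here, and 369 and 1035 with the median of each array subtracted. It was 727 and 967 with quantile normalization between arrays, and 3310 and 3518 with array weights. All 3 values of one line lay beyond all 3 of the other for 5 receptor probe sets, or 16.7%, against 28.7% of all probe sets. Of these, 2 were higher and 3 lower in LCCTam, where 13% and 15.7% of all probe sets were. An unadjusted p under 0.05 was reached by 4 of the 30, where 21.8% of all probe sets reached it. The median receptor difference was 0.036, against 0.016 for all probe sets. The median absolute difference was 0.104, against 0.142. The 95% interval of the difference lay within 1 log2 unit of 0 for 29 of the 30, all but NR3C2. Such an interval was found for 92.3% of all probe sets. These intervals bound the measured differences only, which may be compressed for dim probe sets. Counted per gene by its brightest probe set, 1 of the 10 receptor genes passed, where 7.56% of all 11963 genes did, and 40% did not overlap, against 29.8%. The median absolute difference per gene was then 0.230 for the receptors, against 0.154 for all genes. These per-gene values rest on which probe set stood for a gene, a near tie for RARA and RARB. The brightest RARA probe set had means of 6.73 in LCCTam and 7.05 in SUM44, a difference of -0.32. Another had 6.90 and 6.87, a difference of 0.029. For RARB the brightest had 5.01 and 5.41, a difference of -0.40, and another 5.13 and 5.25, a difference of -0.12. The per-gene values therefore do not place the receptors above the array.

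**Figure D1:**
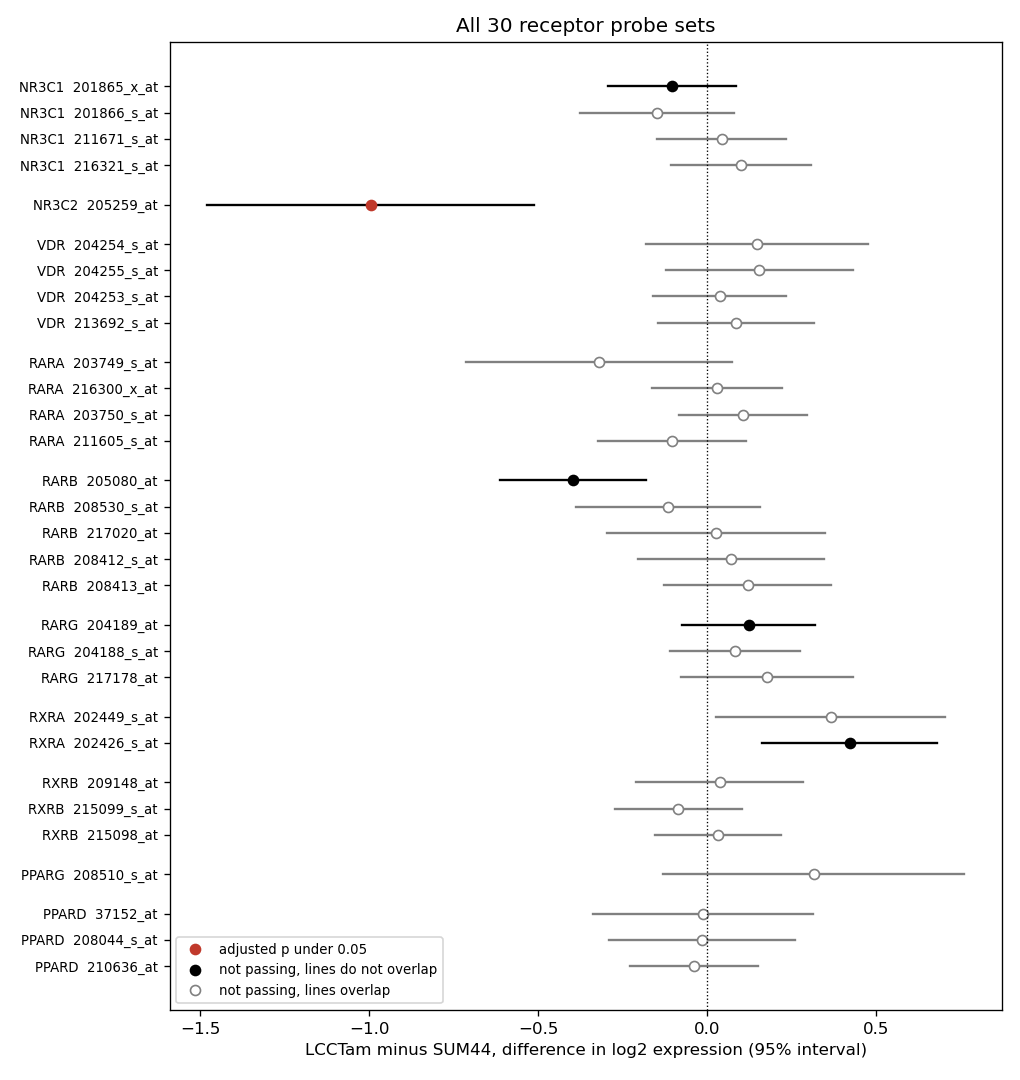
Difference in log2 expression, LCCTam minus SUM44, of the 30 receptor probe sets, one row each, with 95% intervals from limma as lines. The red point is the NR3C2 probe set (adjusted p = 0.0345), black points are the other 4 whose lines did not overlap, and open points are the 25 whose lines overlapped.

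NR3C1 encodes the glucocorticoid receptor, which binds cortisol. Its brightest probe set read 4.95, 4.94 and 4.92 in LCCTam at passages 8, 9 and 10, against 4.97, 5.02 and 5.14 in SUM44 at passages 74, 75 and 76. The lines did not overlap, by 0.022, and the difference was -0.10 (95% interval -0.29 to 0.085, adjusted p = 0.494). This probe set carries the suffix _x_at, which marks probes that may bind other transcripts. The other 3 NR3C1 probe sets overlapped between lines and differed by -0.15, 0.042 and 0.098, and without LCCTam at passage 10 by -0.089, 0.030 and 0.038. All 4 were dim, at mean percentiles of 2.83 to 29.2 of the array in LCCTam and 1.38 to 32.2 in SUM44. The values hold no detection calls, so these levels do not tell whether NR3C1 was expressed, and a change at such levels may not be measurable here.

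NR3C2 encodes the mineralocorticoid receptor, which binds aldosterone and cortisol and drives sodium transport genes in epithelia. Its 1 probe set read 6.27, 6.30 and 5.63 in LCCTam at passages 8, 9 and 10, against 7.31, 6.99 and 6.90 in SUM44 at passages 74, 75 and 76. Every LCCTam value lay below every SUM44 value, with the closest 0.60 apart, and the lowest was LCCTam at passage 10. The means were 6.07 ± 0.38 in LCCTam and 7.06 ± 0.21 in SUM44 (SD, n = 3 each), a difference of -1.0 (SE 0.20, 95% interval -1.48 to -0.51, limma adjusted p = 0.0345), or 2.0-fold lower. Mean percentiles were 51.7 in LCCTam and 66.6 in SUM44. In limma, without LCCTam at passage 10 the difference was -0.78 and still passed (adjusted p = 0.0195). The direction was kept but the call was lost without any one of the other 5 arrays. The adjusted p was 0.0844 and 0.0620 without LCCTam at passages 8 and 9, and 0.0863, 0.128 and 0.0646 without SUM44 at passages 74, 75 and 76.

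**Figure D2:**
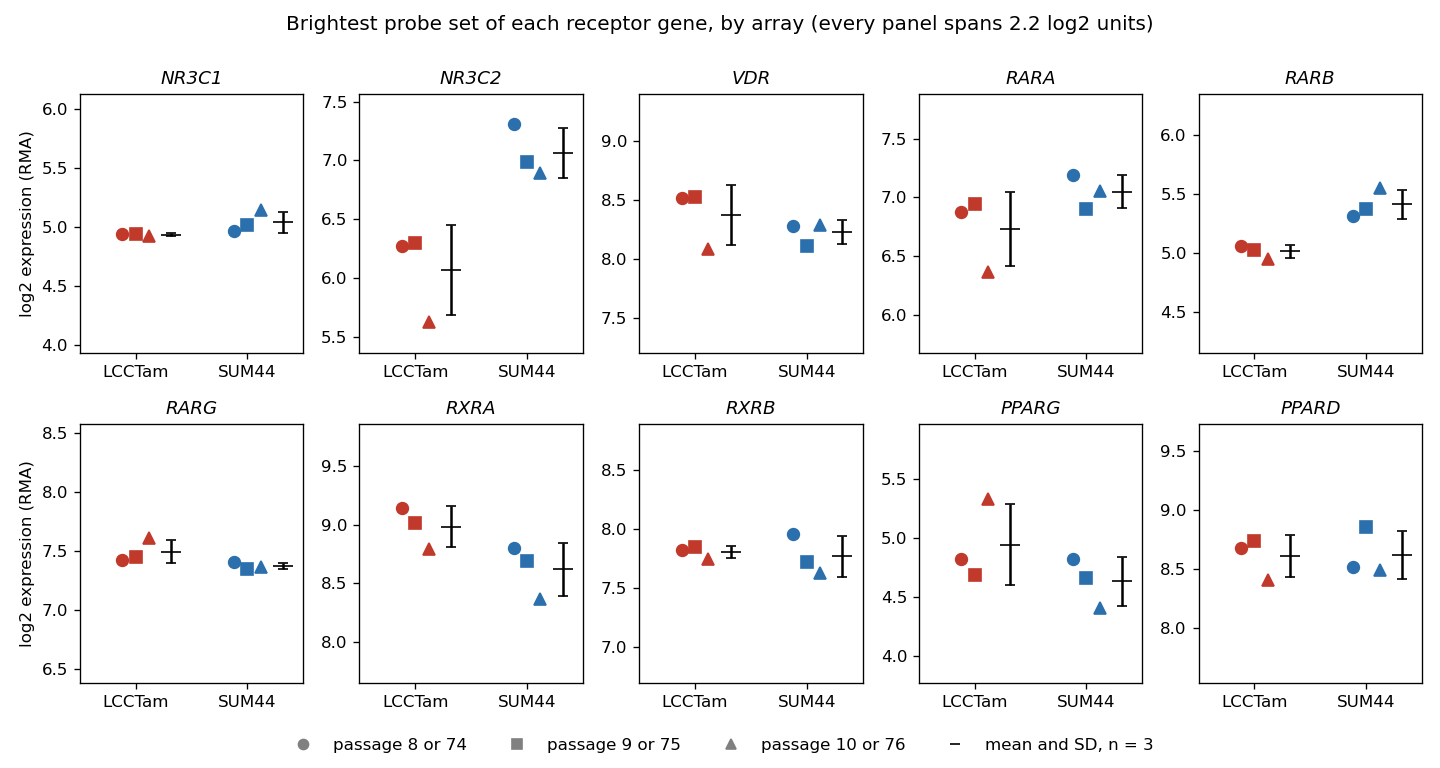
Log2 expression of the brightest probe set of each receptor gene, one panel per gene, with LCCTam in red and SUM44 in blue, each point 1 array, and the mean with SD (n = 3) beside it; every panel spans the same range. The lines were 0.60 apart at their closest for NR3C2, which passed, and 0.25 apart for RARB, which did not. The RARB probe sets not shown overlapped between lines. LCCTam at passage 10 lies away from the other LCCTam arrays for NR3C2, VDR, RARA and PPARG.

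NR3C2 lies on chromosome 4. Taking the brightest probe set per gene, 87 of 453 chromosome 4 genes passed, 4 higher and 83 lower, or 19.2%, where 7.56% of all genes did. The 2 shares were not tested against each other. Among the 5 measured genes on each side of NR3C2, a choice made after the values were seen, 5 of 10 were lower. The lines did not overlap for 5 of the 10, where 29.8% of all genes did not. Of the 10, 2 passed, both lower. They were SMAD1, a transcription factor of BMP signalling, at -0.87 (limma adjusted p = 0.0143), and LRBA, a vesicle traffic protein, at -1.14 (limma adjusted p = 0.0135). The nearest neighbours on the SMAD1 side, ARHGAP10 and TMEM184C, differed by 0.25 and -0.23, and DCLK2 on the other side by 0.0079, all without passing. LSM6, next to SMAD1, differed by -0.33 without overlap and did not pass. The median difference of the 10 was -0.037. Neighbours of the other 9 receptor genes passed in 0 to 2 of 10 cases each.

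**Figure D3:**
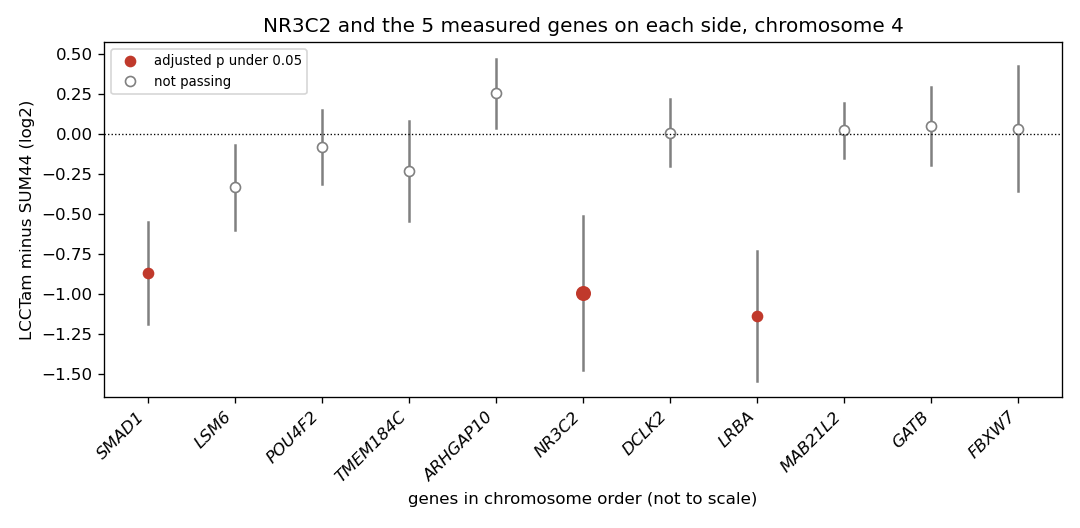
Difference in log2 expression, LCCTam minus SUM44, of NR3C2 and the 5 measured genes on each side in chromosome order, with 95% intervals as lines and passing genes in red. SMAD1, NR3C2 and LRBA passed as lower, and the genes between them lay between -0.33 and 0.25.

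The genes whose values followed NR3C2 most closely over the 6 arrays were DHRS2, SLC24A3 and SPRY1. Likeness was the root mean square distance between centred log2 values, which was 0.041 for DHRS2, 0.084 for SLC24A3 and 0.10 for SPRY1. DHRS2, a short-chain dehydrogenase, read 6.11, 6.18 and 5.46 in LCCTam at passages 8, 9 and 10, against 7.06, 6.86 and 6.73 in SUM44 at passages 74, 75 and 76. Its difference was -0.97, with -0.89 for SLC24A3, a sodium and calcium exchanger, and -0.97 for SPRY1, an inhibitor of receptor tyrosine kinase signalling. Their low value at LCCTam passage 10 is part of the likeness. DHRS2 is on chromosome 14, SLC24A3 on chromosome 20 and SPRY1 on chromosome 4.

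VDR, the receptor of calcitriol, was read by 4 probe sets, and none passed. The brightest read 8.52, 8.52 and 8.08 in LCCTam at passages 8, 9 and 10, against 8.28, 8.11 and 8.29 in SUM44 at passages 74, 75 and 76. LCCTam at passages 8 and 9 lay above all SUM44 arrays and LCCTam at passage 10 below them. The difference was 0.15 (95% interval -0.18 to 0.47, adjusted p = 0.587). The other 3 VDR probe sets differed by 0.15, 0.036 and 0.085, and without LCCTam at passage 10 by 0.26, 0.052 and 0.018. Without LCCTam at passage 10 the brightest differed by 0.29 (limma adjusted p = 0.0857), which is 2.0 times the value with it, and did not pass. It differed by 0.074 and 0.073 without LCCTam at passages 8 and 9, and by 0.089 without SUM44 at passage 75.

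RARB, the retinoic acid receptor beta, had the lowest adjusted p after NR3C2. Its brightest probe set read 5.06, 5.03 and 4.95 in LCCTam at passages 8, 9 and 10, against 5.31, 5.37 and 5.55 in SUM44 at passages 74, 75 and 76. The lines were 0.25 apart at their closest, and this is the gene whose DR5 repeat is printed above. The means were 5.01 ± 0.056 in LCCTam and 5.41 ± 0.12 in SUM44 (SD, n = 3 each), a difference of -0.40 (95% interval -0.61 to -0.18, limma adjusted p = 0.0503). It did not pass here and passed in 5 other settings, among them the fit of probe sets with 1 gene symbol, at an adjusted p of 0.0495 in limma. The other 4 RARB probe sets overlapped between lines and differed by -0.12, 0.025, 0.069 and 0.12. Without LCCTam at passage 10 these 4 differed by -0.21, -0.12, -0.051 and 0.048 and the brightest by -0.37, and none of them passed. All 5 were at mean percentiles of 15.5 to 33.5 in LCCTam and 13.1 to 39.8 in SUM44. As for NR3C1, such levels do not tell whether RARB was expressed.

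RARA and RARG, the alpha and gamma receptors of retinoic acid, did not pass. The brightest RARA probe set read 6.88, 6.95 and 6.37 in LCCTam at passages 8, 9 and 10, against 7.19, 6.91 and 7.05 in SUM44 at passages 74, 75 and 76. The low value is LCCTam at passage 10, and the difference of -0.32 (95% interval -0.71 to 0.074, adjusted p = 0.323) was -0.14 without that array. The other 3 RARA probe sets differed by 0.029, 0.11 and -0.10. For RARG the brightest probe set read 7.43, 7.45 and 7.61 in LCCTam at passages 8, 9 and 10, against 7.40, 7.35 and 7.36 in SUM44 at passages 74, 75 and 76. Its lines did not overlap, by 0.024, and the difference was 0.12 (95% interval -0.075 to 0.32, adjusted p = 0.444), or 0.065 without LCCTam at passage 10. The other 2 RARG probe sets differed by 0.082 and 0.18, and without that array by 0.058 and 0.081.

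RXRA, the retinoid X receptor alpha and a shared partner, had 2 probe sets that both differed upward without passing. The brighter read 9.14, 9.02 and 8.79 in LCCTam at passages 8, 9 and 10, against 8.80, 8.69 and 8.37 in SUM44 at passages 74, 75 and 76. Only LCCTam at passage 10 and SUM44 at passage 74 crossed, by 0.0093, and the difference was 0.36 (95% interval 0.025 to 0.70, adjusted p = 0.199). The dimmer read 6.07, 5.93 and 6.27 in LCCTam at passages 8, 9 and 10, against 5.62, 5.78 and 5.61 in SUM44 at passages 74, 75 and 76. There every LCCTam value was above every SUM44 value, with the closest 0.16 apart, and the difference was 0.42 (95% interval 0.16 to 0.68, limma adjusted p = 0.0710), or 1.34-fold. RXRA was thus the receptor gene with the largest upward difference. On leaving out 1 array, the brighter probe set differed by 0.24, without SUM44 at passage 76, to 0.46, without LCCTam at passage 10, with limma adjusted p of 0.428 and 0.0949. The dimmer differed by 0.33, without LCCTam at passage 10, to 0.50, without LCCTam at passage 9, with limma adjusted p of 0.0732 and 0.0762.

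RXRB, the beta form, differed little. Its brightest probe set read 7.82, 7.85 and 7.75 in LCCTam at passages 8, 9 and 10, against 7.96, 7.72 and 7.63 in SUM44 at passages 74, 75 and 76. The lines overlapped, and the difference was 0.036 (95% interval -0.21 to 0.28, adjusted p = 0.875). Without LCCTam at passage 10 it was 0.066, and without SUM44 at passage 76 it was -0.034. The other 2 RXRB probe sets differed by -0.086 and 0.032, and without LCCTam at passage 10 by -0.063 and 0.049.

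PPARG, the receptor that drives fat cell genes, was read by 1 dim probe set. It read 4.82, 4.68 and 5.33 in LCCTam at passages 8, 9 and 10, against 4.82, 4.66 and 4.41 in SUM44 at passages 74, 75 and 76. The high value is LCCTam at passage 10, and the lines overlapped. The difference of 0.31 (95% interval -0.13 to 0.76, adjusted p = 0.388) was 0.12 without that array. PPARD, which acts on fatty acid use in many tissues, read 8.68, 8.74 and 8.41 in LCCTam at passages 8, 9 and 10, against 8.52, 8.86 and 8.49 in SUM44 at passages 74, 75 and 76 on its brightest probe set. The difference was -0.013 (95% interval -0.34 to 0.31, adjusted p = 0.968), with -0.017 and -0.039 for the other 2 PPARD probe sets. Without LCCTam at passage 10 the 3 differed by 0.088, 0.10 and -0.055. All 3 PPARD probe sets overlapped between the lines.

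In the 4 lists around the corticoid receptors 8 different genes passed, 3 higher and 5 lower. Each gene is given by its brightest probe set, for which 1.98% of all genes passed as higher and 5.58% as lower. An unadjusted p under 0.05 was reached by 2841 of all 11963 genes, and 29.8% did not overlap between lines. The lists were not tested against these shares. Of 23 measured glucocorticoid-responsive genes, a list with a median difference of -0.028 against 0.017 for all genes, 0 rose, 3 fell and 20 did not pass. Of these 23, 8 had an unadjusted p under 0.05 and 34.8% did not overlap between lines. CEBPD, a transcription factor of the C/EBP family, fell by 1.21 on the log2 scale (limma adjusted p = 0.00793), while its second probe set, at 3.81 in LCCTam and 3.85 in SUM44, differed by -0.033. SGK1, a kinase that stabilises sodium channels, read 4.43, 4.56 and 4.36 in LCCTam at passages 8, 9 and 10, against 5.09, 5.12 and 5.04 in SUM44 at passages 74, 75 and 76. It fell by 0.63 (limma adjusted p = 0.00854) and NFKBIA, the inhibitor of NF-kappaB, by 0.57. As for NR3C1, the dim levels of SGK1 do not tell whether it was expressed. The widely used glucocorticoid-responsive genes FKBP5 and TSC22D3 had differences of 0.11 and 0.61 and did not pass, and for both genes the lines overlapped.

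The mineralocorticoid list holds targets of NR3C2 and sodium and potassium transport genes, and 1 of 12 rose, 2 fell and 9 did not pass (median -0.072). SCNN1A, the alpha subunit of the epithelial sodium channel, fell by 2.87 on its brightest probe set (limma adjusted p = 0.00104). It read 5.35, 5.01 and 5.16 in LCCTam at passages 8, 9 and 10, against 8.45, 8.02 and 7.64 in SUM44 at passages 74, 75 and 76. The other 2 SCNN1A probe sets differed by 0.058 and -0.0063. SGK1, which was dim in both lines, is in this list too. In the fit of probe sets with a mean of at least 6 in either line, 1 gene of the list rose and 1 fell. KCNMA1, a calcium-activated potassium channel, rose by 0.54 (limma adjusted p = 0.0207), and a second KCNMA1 probe set by 1.14 (limma adjusted p = 0.00864). The beta and gamma sodium channel subunits SCNN1B and SCNN1G differed by 0.21 and -0.035 without passing.

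Enzymes that make or inactivate corticoids gave 0 of 11 passing (0 at an unadjusted p under 0.05; median 0.021), with the largest difference at 0.38 for CYP17A1 (adjusted p = 0.388). HSD11B2, which inactivates cortisol where NR3C2 acts, differed by 0.22 (adjusted p = 0.374). Of 14 chaperones of steroid receptors 2 rose, 1 fell and 11 did not pass (3 at an unadjusted p under 0.05; median 0.078). BAG1, a cochaperone that binds HSP70 and nuclear receptors, read 9.85, 10.27 and 9.99 in LCCTam at passages 8, 9 and 10, against 8.35, 8.06 and 8.34 in SUM44 at passages 74, 75 and 76. It rose by 1.79 (limma adjusted p = 0.00148), and its second probe set by 1.6 (limma adjusted p = 0.00175). FKBP4, the immunophilin that helps steroid receptors reach the nucleus, rose by 0.80 on one probe set and 1.0 on the other (limma adjusted p = 0.0143 and 0.0140). PPID, another immunophilin of the HSP90 complex, fell by 0.68 and 0.86 on its 2 probe sets (limma adjusted p = 0.0148 and 0.00622). HSP90AA1 and HSP90AB1, the HSP90 genes, differed by -0.17 and 0.099 and did not pass.

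Among genes of vitamin D metabolism and uptake 0 of 8 passed in limma (2 at an unadjusted p under 0.05; median -0.036), with the largest difference at -0.48 for DHCR7 (adjusted p = 0.211), a cholesterol enzyme that competes for the vitamin D precursor. CYP24A1, which degrades calcitriol and is a sensitive target of VDR, was at 3.65 in LCCTam and 3.71 in SUM44, near the bottom of the array. Of all 11963 genes 1.98% passed as higher and 5.58% as lower, and 2841 had an unadjusted p under 0.05. Of 17 vitamin D-responsive genes 1 rose, 0 fell and 16 did not pass (4 at an unadjusted p under 0.05; median 0.12). That gene was IGFBP3, which binds insulin-like growth factors and rose by 1.62 (limma adjusted p = 0.0432). It read 8.06, 7.98 and 7.42 in LCCTam at passages 8, 9 and 10, against 6.68, 6.54 and 5.38 in SUM44 at passages 74, 75 and 76. The second IGFBP3 probe set differed by 0.48 and did not pass.

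The retinoid genes that passed went in both directions. Of 17 genes of retinoid metabolism and binding 1 rose, 0 fell and 16 did not pass. Their median was 0.073, and 3 had an unadjusted p under 0.05. Of 17 retinoic acid-responsive genes 1 rose, 2 fell and 14 did not pass. Here the median was 0.072, and 4 had an unadjusted p under 0.05. Of all genes 1.98% passed as higher and 5.58% as lower, and the lists were not tested against these shares. CYP26B1, which breaks down retinoic acid and is in both lists, rose by 0.74 (limma adjusted p = 0.0389). It read 6.98, 7.31 and 6.95 in LCCTam at passages 8, 9 and 10, against 6.62, 6.13 and 6.26 in SUM44 at passages 74, 75 and 76. CYP26A1, whose DR5 repeat is printed above, differed by 0.041 (adjusted p = 0.846) and was dim in both lines. PLAAT4, a phospholipase and acyltransferase first found as a retinoid-induced gene, fell by 2.01 (limma adjusted p = 0.000254). It read 5.55, 5.33 and 5.59 in LCCTam at passages 8, 9 and 10, against 7.51, 7.55 and 7.44 in SUM44 at passages 74, 75 and 76. NRIP1, a corepressor of nuclear receptors, fell by 0.82 (limma adjusted p = 0.0147). The retinoic acid-binding protein CRABP2 differed by 0.21, with SUM44 values of 8.43, 7.16 and 6.74 at passages 74, 75 and 76 that spread more widely than the lines differed.

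PPAR-responsive lipid genes gave 0 higher, 1 lower and 19 not passing of 20 (4 at an unadjusted p under 0.05; median 0.042). The shares of all genes passing were 1.98% as higher and 5.58% as lower. The gene that fell was ACADM, a dehydrogenase of mitochondrial fatty acid oxidation, by 1.16 (limma adjusted p = 0.00175). In the fit of probe sets with a mean of at least 6 in either line, 0 genes of this list passed. The PPAR targets PLIN2, PDK4 and ANGPTL4 differed by -0.10, 0.0075 and 0.14. SLC25A20, the carnitine carrier, differed by 0.56 (limma adjusted p = 0.116) and by 0.76 without LCCTam at passage 10, where it passed (limma adjusted p = 0.00588), so that 1 higher and 1 lower then passed. Of the other RXR partners and RXRG, 0 of 8 passed in limma (1 at an unadjusted p under 0.05; median 0.030). The largest difference was -0.32 for NR1H3, an oxysterol receptor, and RXRG itself differed by 0.31 without overlap between lines (adjusted p = 0.119).

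Of the 13 different list genes that passed, SCNN1A, BAG1, PLAAT4 and ACADM passed in limma with any 1 array left out. ACADM was not among those passing in the fit of probe sets with a mean of at least 6 in either line. All 13 kept their direction and passed without LCCTam at passage 10. Without SUM44 at passage 75 the other 9 did not pass, with adjusted p of 0.0525 for CEBPD, 0.0588 for SGK1, 0.135 for NFKBIA, 0.108 for KCNMA1, 0.0835 for FKBP4, 0.0847 for PPID, 0.114 for IGFBP3, 0.152 for CYP26B1 and 0.0781 for NRIP1 in limma. Without LCCTam at passage 8, NFKBIA, FKBP4, PPID, IGFBP3, CYP26B1 and NRIP1 did not pass, and without LCCTam at passage 9 these and KCNMA1 did not. NFKBIA and KCNMA1 also did not pass without SUM44 at passage 74, nor NFKBIA and CYP26B1 without SUM44 at passage 76.

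**Figure D4:**
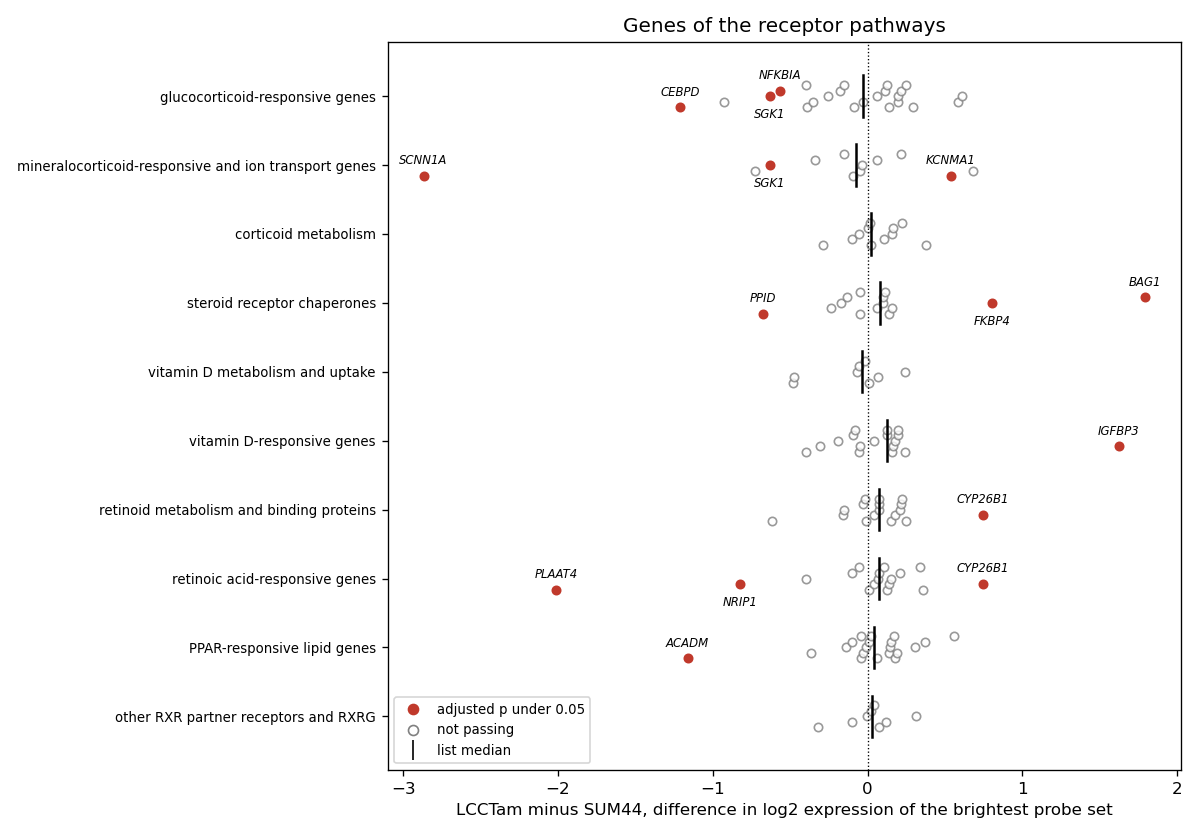
Difference in log2 expression, LCCTam minus SUM44, of the brightest probe set of each gene in 10 receptor pathway lists, one row per list, with passing genes in red and named and the list median as a bar. The medians lie between -0.072 and 0.12, and single genes such as SCNN1A, PLAAT4, BAG1 and IGFBP3 lie far from them.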

How the data were processed

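Total RNA of 3 LCCTam and 3 SUM44 samples was hybridized to Affymetrix arrays. The deposited values are log2 expression that the authors computed with RMA, as the submitters' design text and processing notes state. The arrays' distributions were not identical as deposited. The version and the chip definition: not given in the sources used here. No raw signals or detection calls were used, so dim differences may be compressed, and the number of arrays limits the precision.

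Of 22283 probe sets, 68 controls were left out. Names came from the platform annotation and were matched to current symbols through Entrez identifiers for 19053 of 19065 single-symbol probe sets with RefSeq (GRCh38.p14). The brightest probe set stood for a gene. All 22215 probe sets were fitted with limma 3.58.1 (lmFit, eBayes) in R 4.3.3, with Benjamini-Hochberg adjustment over all of them. The fit was tested on simulated data. The labels do not say that passages were independent cultures, so p-values reflect only how these samples spread, which may be technical. Scan batches were not used here and cannot be told apart from the lines.

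The members and the 10 pathway lists (162 genes, 137 measured) were chosen with earlier results of these data known. All members are named, and per list up to 4 passing genes with the largest differences or, with none, the gene with the largest difference. The 3 genes nearest NR3C2 in pattern were also named by that rule, and other genes were named after their values were seen. Alternatives changed the probe sets fitted, normalization, array weights, variance model, filter, call rule and arrays.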

Additional observations from a re-analysis of the deposited data

How the results depend on the processing

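No paired analysis was possible because the lines share no passage. Each result was recomputed under 16 alternatives, with fewer where a gene had no probe set left.

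The number of probe sets passing, 1494, was 948 with 1 probe set per gene, 705 without probe sets with the suffix _x_at or _s_at, 6828 with array weights and 454 by the selection in the submitters' design text. It was 357 to 2398 on leaving out 1 array, lowest without SUM44 at passage 75 and highest without LCCTam at passage 10. In the weighted fit LCCTam at passage 8 had a weight of 5.70 and LCCTam at passage 10 one of 0.199.

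Of the receptor probe sets, 1 passed. It was 2, both lower, with single-symbol probe sets, without the suffixes, with quantile normalization and with eBayes with trend. With array weights 8 of the 30 passed, 4 higher and 4 lower, where 6828 of all 22215 probe sets passed. By the submitters' selection it was 0. On leaving out 1 array it was 0 to 1, and 1 only without LCCTam at passage 10.

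NR3C2 stayed lower in all 16 alternatives. By the submitters' selection it did not pass, at -1.0 against a limit of 1, and without 1 array it was -1.11 to -0.78. RARB passed at -0.40 with single-symbol probe sets, without the suffixes and with eBayes with trend, at -0.42 with quantile normalization and at -0.35 with array weights. VDR passed at 0.33 and RXRA at 0.48 with array weights, the fit in which 6828 of all probe sets passed. The sign turned, with no call, for RXRB on leaving out 1 array, where it was -0.034 to 0.13. It also turned for PPARD, which was 0.081 with quantile normalization, 0.0040 with array medians subtracted, and -0.079 to 0.10 on leaving out 1 array. NR3C1, RARA, RARG and PPARG kept their direction and passed in no alternative. The cause of these changes was not tested. With 3 arrays per line, small differences of dim receptor genes such as NR3C1 cannot be told from none.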
